A study of Saccharomyces cerevisiae W303 with 4 samples.

Results

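The genes described here encode the proteins of the large (60S) subunit of the cytosolic yeast ribosome. They were taken by name from the R64 annotation (the sacCer3 build) as the nuclear genes whose symbol is RPL with a number, together with the stalk genes RPP0, RPP1A, RPP1B, RPP2A and RPP2B. This gave 81 of 6002 nuclear protein-coding genes. Zuo1 binding was measured by chromatin immunoprecipitation and sequencing (ChIP-seq) in asynchronous Saccharomyces cerevisiae of the W303 background that carried Zuo1 with a C-terminal Myc tag. Chromatin was crosslinked with formaldehyde, sheared and precipitated with an antibody against Myc (2 IP libraries), and the same kind of chromatin without precipitation gave the input (2 libraries). All 4 libraries came from the tagged strain with no added treatment, so the only contrast in the data is IP against input. No library of an untagged strain was analysed here, so signal that the antibody or the chromatin gives by itself is not measured.

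Zuo1 is a J-domain protein that forms the ribosome-associated complex with Ssz1 and stimulates the Hsp70 chaperone Ssb on nascent chains at the exit of the ribosomal tunnel, where it contacts the large subunit next to Rpl31. It is also found in the nucleus. The ribosomal protein genes are among the most highly transcribed genes of growing yeast. Many of them exist as A and B paralogs that descend from a genome duplication, and many carry an intron close to the start codon, which is uncommon in yeast. Their promoters are bound by Rap1, Fhl1, Ifh1 and, at a minority of them, Abf1.

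The libraries had been pooled before peaks were called, so each peak has 1 value and no spread between replicates. Fold enrichment is the IP signal at the peak's summit over the local background. The IP fragments over the summit were recovered as whole numbers from the deposited fold and p-value, and the 95% intervals given below are Poisson intervals of this number carried over to the fold. They cover counting error only, not the error between cultures. At the strongest peak of a gene, the summit was covered by 65 to 262 IP fragments (median 94.0) over a background of 33.9 to 42.1 fragments. The total depth of the libraries is not given by the peak list. With no replicate values, no test was run, and all comparisons below are descriptions of this one pooled list.

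Nearly all large-subunit genes lay under a Zuo1 peak. A peak shared at least 1 bp with the gene body (start codon to stop codon, introns included) in 76 of 81 genes (93.8%), while 17.9% of all nuclear protein-coding genes had such a peak. The genes of the small subunit were close to this, with 50 of 57 (87.7%), and 34 of 181 genes with an intron outside the ribosomal proteins had a body peak (18.8%). In the 500 bp upstream of the start codon, 29 of 81 large-subunit genes had a peak (35.8%) against 13.3% of all genes. The small-subunit genes had one in 25 of 57 (43.9%). A peak in the body or upstream was found for the same number as in the body alone, 76 of 81, against 24.4% of all genes, so no gene had an upstream peak only. The summit of a peak lay inside the body in 58 genes (71.6%) against 13.8% of all genes. These peaks were 86 distinct intervals, which is 5.40% of the 1594 peaks in the list. In 65 genes the body held 1 peak and in 11 genes it held 2. One peak spanned the neighbours RPL13A and RPP1A and was counted for both. In 19 of the 76 genes the strongest body peak also overlapped another gene, RNA genes and this shared peak included.

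High frequency did not come with high enrichment. The strongest body peak of a large-subunit gene had a median fold of 2.45 (range 1.72 to 6.93), and the median over all 1073 genes with a body peak was 2.70. A body peak of at least 3-fold was present in 20 of the 81 genes (24.7%) against 7.31% of all genes. The small-subunit genes had the same median of 2.45 with a maximum of 8.94, and the 34 other intron genes with a peak had a median of 3.56. The strongest body peaks had a median length of 702.5 bp. All 1594 peaks of the list, not limited to the strongest of a gene, had a median length of 426.5 bp and a median fold of 2.44. These medians of length are over unlike sets of peaks. Body peaks covered a median of 80.9% of the gene body. In 12 genes the body was covered in full.

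**Figure D1:**
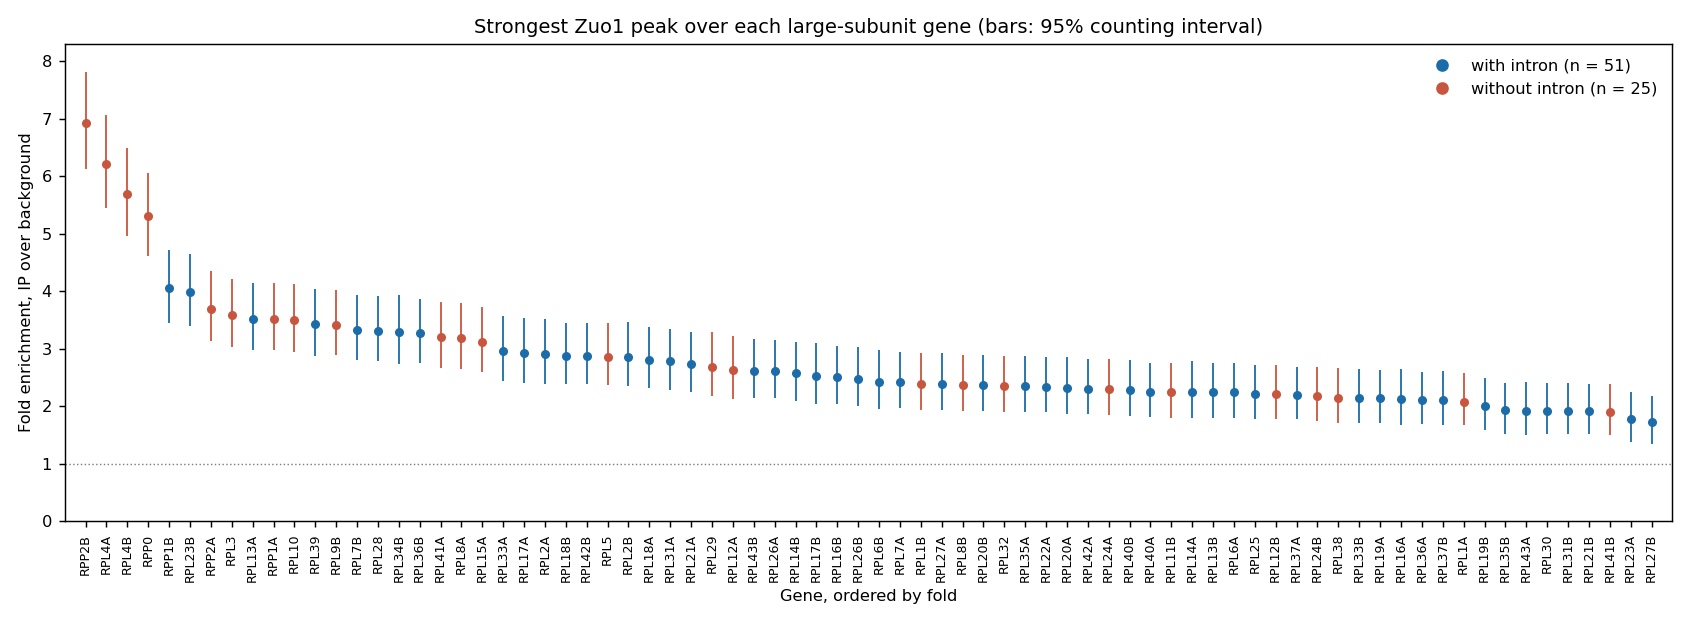
Fold enrichment (y axis, IP over local background) of the strongest peak over each of the 76 large-subunit genes with a body peak, in order of fold, with the 95% counting interval as a bar and the colour showing whether the gene has an intron. RPP2B, RPL4A, RPL4B and RPP0 lie between 5.30 and 6.93, and the other 72 genes form a slope from 4.05 to 1.72 in which neighbours have overlapping intervals.

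The strongest peaks lay on the ribosomal stalk genes and on RPL4. The stalk is the flexible arm of the large subunit that recruits and activates the GTPases of translation. Its base protein P0, encoded by RPP0, carries dimers of the acidic proteins P1 and P2. RPP2B had the highest fold of all members, 6.93 (6.12 to 7.81), from 262 IP fragments. RPP0 had 5.30 (4.62 to 6.05), RPP1B 4.05 (3.45 to 4.72), RPP2A 3.70 (3.13 to 4.35) and RPP1A 3.52 (2.97 to 4.14). All 5 stalk genes were thus among the 10 genes with the highest fold. RPL12A and RPL12B, whose protein sits beside P0 at the stalk base, had lower values of 2.63 (2.13 to 3.23) and 2.21 (1.78 to 2.71). The intervals of both RPL12 copies lay below those of RPP0 and RPP2B.

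RPL4 encodes a protein with a long loop that reaches into the exit tunnel. RPL4A had a fold of 6.22 (5.44 to 7.07) and RPL4B of 5.69 (4.96 to 6.49). The coding sequences of the copies differ at 12 of 1089 bp and at 0 of the 151 bp around the summit of RPL4A. Of the 64-base stretches (the read length) of either gene, 66.9% occur more than once in the genome, so reads of the copies cannot be told apart over much of the gene and their similar values are uncertain as separate measurements. The 3 other genes among the highest 10 were RPL23B with 3.99 (3.40 to 4.65) at a summit upstream of the gene, whose protein faces the small subunit and is bound by the anti-association factor Tif6, RPL3 with 3.58 (3.03 to 4.21), whose protein lies near the peptidyl transferase centre, and RPL13A with the peak it shares with RPP1A. The summit of that shared peak lay in RPP1A, 493 bp beyond the stop codon of RPL13A. RPL10, a late-joining protein next to the catalytic site, followed with 3.50 (2.95 to 4.12).

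At the low end, 8 genes had a fold under 2. The 5 lowest were RPL27B with 1.72 (1.34 to 2.17), RPL23A with 1.77 (1.37 to 2.24), RPL41B with 1.90 (1.5 to 2.38), RPL21B with 1.91 (1.51 to 2.39) and RPL31B with 1.92 (1.51 to 2.40). RPL41B encodes one of the shortest proteins of yeast, with 25 codons. The intervals of these 5 genes overlap each other and those of most genes near the median.

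The summits on the 7 stalk and RPL4 genes sat on stretches rich in codons for glycine and alanine. This was noticed after the values were seen. It did not hold for every strong peak. The summit of RPL23B lay upstream of the gene, and that of RPL3 had fewer such codons. In the 151 bp centred on the summit of each gene, the sequences below show every in-frame glycine (GGN) or alanine (GCN) codon in capitals, 5′ to 3′ on the coding strand, for 4 of the strongest genes and for 2 genes for contrast, RPL3 as a strong peak and RPL1A as a weak one, the lowest among the genes without an intron whose summit lay in coding sequence. They are reference (R64) sequence from chrIV:1239616-1239766 (+ strand), chrII:300320-300470 (+ strand), chrXII:806627-806777 (+ strand), chrIV:230354-230504 (+ strand), chrXV:444814-444964 (+ strand) and chrXVI:136118-136268 (+ strand).
RPP2B: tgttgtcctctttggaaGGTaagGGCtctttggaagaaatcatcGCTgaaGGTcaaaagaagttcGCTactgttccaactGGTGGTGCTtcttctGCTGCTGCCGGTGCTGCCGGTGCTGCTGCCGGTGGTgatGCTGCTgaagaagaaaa
RPL4A: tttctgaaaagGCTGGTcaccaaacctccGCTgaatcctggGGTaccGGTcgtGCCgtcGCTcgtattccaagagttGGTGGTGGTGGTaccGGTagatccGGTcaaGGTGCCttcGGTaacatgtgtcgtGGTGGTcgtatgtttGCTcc
RPP0: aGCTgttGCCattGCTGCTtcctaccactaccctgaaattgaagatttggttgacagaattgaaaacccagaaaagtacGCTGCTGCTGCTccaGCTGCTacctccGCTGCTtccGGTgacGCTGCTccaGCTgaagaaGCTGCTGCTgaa
RPP1B: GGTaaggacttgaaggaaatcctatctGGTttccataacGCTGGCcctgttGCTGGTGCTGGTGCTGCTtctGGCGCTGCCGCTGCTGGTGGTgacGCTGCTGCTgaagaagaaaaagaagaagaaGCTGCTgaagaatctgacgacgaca
RPL3: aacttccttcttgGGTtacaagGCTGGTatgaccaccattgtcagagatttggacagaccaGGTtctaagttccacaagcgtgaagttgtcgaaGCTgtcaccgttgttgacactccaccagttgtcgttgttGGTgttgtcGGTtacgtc
RPL1A: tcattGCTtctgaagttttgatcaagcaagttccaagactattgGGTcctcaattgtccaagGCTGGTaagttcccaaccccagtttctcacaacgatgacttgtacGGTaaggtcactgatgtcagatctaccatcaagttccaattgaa
In RPP2B, 22 codons of the window are marked, 13 of them for alanine. This is the alanine-rich hinge that joins the folded part of a P protein to its acidic tail, and RPP0 and RPP1B show their own versions of it. The window of RPL4A holds 13 glycine and 6 alanine codons and includes a run of consecutive glycine codons, and the window of RPL4B holds the same numbers. The window of RPL3 has 7 marked codons and that of RPL1A has 5.

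Glycine and alanine codons made up 37.3% to 43.1% of the 51 codons around the summit in the 7 stalk and RPL4 genes (median 39.2%). In the 31 other genes with a summit in coding sequence and at least 51 codons, the share was 9.80% to 27.5% (median 15.7%). The 2 ranges do not overlap, but RPL4 was joined to the stalk genes after the values were seen. The gap between the sets is therefore a description and no test, and RPL4A and RPL4B share reads. Over these 38 genes, Pearson's r of this share with the log2 fold was 0.74 and Spearman's rho with the fold was 0.59. Without the genes of at least 5-fold (34 genes remaining) the values were 0.57 and 0.44, and in the 31 genes outside the stalk and RPL4 they were 0.21 and 0.26. All points come from the same pooled libraries and genes are not independent replicates, so no p-value is given. The summit lay within 75 bp of the window of 51 codons richest in these amino acids in 18 of the 38 genes, at a median distance of 78.0 bp. It did so in all 7 stalk and RPL4 genes, at 1 to 42 bp, and in 11 of the 31 others. Weak peaks were among the close ones, with 1 bp in RPL24A (2.30-fold) and 5 bp in RPL31B (1.92-fold), and the strong peak of RPL3 was 605 bp away.

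A similar ordering was present over the whole genome by the richest 51 codons of a gene, wherever its summit lay. Gene length was not held constant. The 5928 nuclear protein-coding genes with at least 51 codons, 79 members among them, were placed in classes by the share of glycine and alanine in their richest 51 codons. With a share under 20%, 12.4% of 3178 genes had a body peak, with a median fold of 2.49. From 20% to under 30% it was 20.5% of 2323 genes (median 2.71), and from 30% to under 40% it was 38.4% of 375 genes (median 3.21). With 40% or more, 38 of 52 genes had a body peak (73.1%), with a median fold of 5.81. RPL41A and RPL41B are too short for a class. The large-subunit genes had a body peak in 21 of 24, 41 of 43, 8 of 8 and 4 of 4 genes of these classes, with median folds of 2.32, 2.51, 3.12 and 3.87. The highest class of members is RPP1A, RPP1B, RPP2A and RPP2B only, and the class below it includes RPP0, RPL4A and RPL4B. These are the genes in which the pattern was noticed, so the rise within the members is not separate support for it. In each class the share with a peak was thus higher than over all genes, while the median fold was lower. These medians cover only the genes with a body peak, which were most members but a smaller share of all genes. A body peak of at least 3-fold was more common in the members in each class. Under 20% it was present in 8.33% of members against 3.43% of all genes. From 20% to under 30% it was 20.9% against 8.78%.

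Codons for glycine and alanine begin with GG or GC, and GC content moved with the fold too. The 151 bp at the summit had a median GC content of 51.7% in the 10 genes with the highest fold (range 48.3% to 57.0%). In the other 66 it was 38.4% (25.8% to 56.3%). Among the 10, the summit shared by RPL13A and RPP1A was counted for both, and the windows of RPL4A and RPL4B are nearly the same sequence. Over all 76 genes r was 0.46 and rho 0.32, and without the genes of at least 5-fold (72 genes) 0.28 and 0.21. The part of base composition in the fold was not tested. At the summits, the median GC content was 40.4% in the large-subunit genes, below the 47.0% of all genes with a body peak. Over whole gene bodies, the large-subunit genes had a median GC content of 39.3%, against 39.7% in all genes. A G-quadruplex motif was taken as 4 runs of at least 3 G, separated by 1 to 25 bases, on either strand. It was present in the strongest peak of 1 of the 76 genes with a peak (1.32%), RPL23B. In the genome, this held for 97 of the 1073 genes with a body peak (9.04%). The motif was present in 0 of the 81 bodies, against 5.80% of all genes. The study asks about the structure that such motifs can form. The paper reports a significant overlap of its peaks with a set of predicted motifs, which was not used here.

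**Figure D2:**
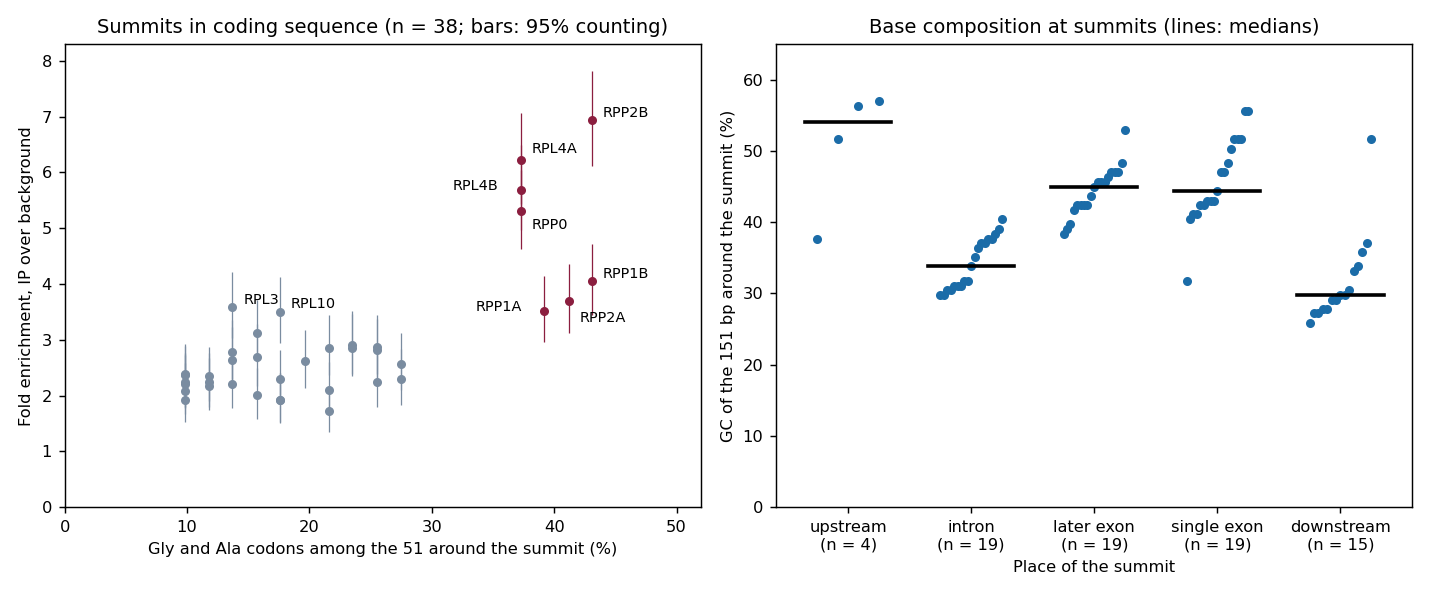
Left, fold enrichment with its 95% counting interval against the share of glycine and alanine codons among the 51 around the summit. Shown are the 38 genes with a summit in coding sequence. The stalk and RPL4 genes, joined as a group after the values were seen, are in red. All 7 lie at 37.3% or more and the other genes at 27.5% or less. Right, GC content of the 151 bp around the summit of the strongest peak by the place of the summit, with medians as lines; intron (33.8%) and downstream (29.8%) summits lie in sequence poorer in GC than coding summits (45.0% and 44.4%).

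Whether introns matter was asked next, since 53 of the 81 genes have one and 28 have none. A body peak was present in 51 of 53 genes with an intron (96.2%) and in 25 of 28 without (89.3%). The median fold was 2.39 (1.72 to 4.05) with an intron and 2.86 (1.90 to 6.93) without, and a fold of at least 3 was reached by 8 and 12 genes. Since 1 bp of overlap counted, some of these summits lay outside the gene. With an intron, they lay upstream in RPL23B, RPL36B and RPL39 and downstream in RPL13A and RPL34B. Without one, they lay downstream in RPL8A, RPL9B and RPL41A. Over both groups, 12 genes at 3-fold or above had the summit inside the body. The median local background was 38.7 and 38.5 fragments. The stalk and RPL4 genes, which hold the highest folds, include 6 of the 25 genes without an intron and 1 of the 51 with one. In the other genes the medians were 2.38 in 50 genes with an intron and 2.39 in 19 without. Leaving out genes for their high folds lowers the median of the group that holds most of them, and at 3-fold or above were still 7 of these 50 and 6 of these 19. The highest 4 genes have no intron, and the highest with one was RPP1B.

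Introns were not avoided by the peaks. In 44 genes a peak reached into an intron and in 11 the whole intron lay under a peak. Of the 38 intron genes whose strongest summit lay inside the body, 19 had it in the intron and 19 in the exon after it, and 0 in the first exon, which is often a few codons long. Introns made up 48.7% of the body length of these genes. RPL7A and RPL7B, the 2 genes with 2 introns, had their strongest summits in an intron, with folds of 2.42 (1.97 to 2.95) and 3.33 (2.80 to 3.94). These introns hold small nucleolar RNA genes, SNR39 in RPL7A and SNR59 in RPL7B. RPL28, whose protein is the site of cycloheximide resistance mutations, had an intron summit of 3.31 (2.78 to 3.92), and RPL30, whose protein controls the splicing of its own transcript, had its summit of 1.92 (1.52 to 2.40) in the last exon. A tRNA or small nucleolar RNA gene lay within 500 bp of 7 members. Without them, 69 of 74 genes had a body peak.

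Along the gene, peaks were less common at the start codon than from the middle of the gene to the stop codon. A peak covered the position 500 bp before the start codon in 6.17% of the 81 genes, 300 bp before it in 22.2%, 100 bp before it in 17.3% and the start codon in 23.5%. At 100 bp after the start codon the share was 50.6%, and at 500 bp after it 79.0%. The stop codon was covered in 80.2%, the position 200 bp beyond it in 53.1% and 500 bp beyond it in 16.0%. The share in all genes stayed under 10% at each of these positions. Genes shorter than 500 bp are past their stop codon at the last of the start codon positions.

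**Figure D3:**
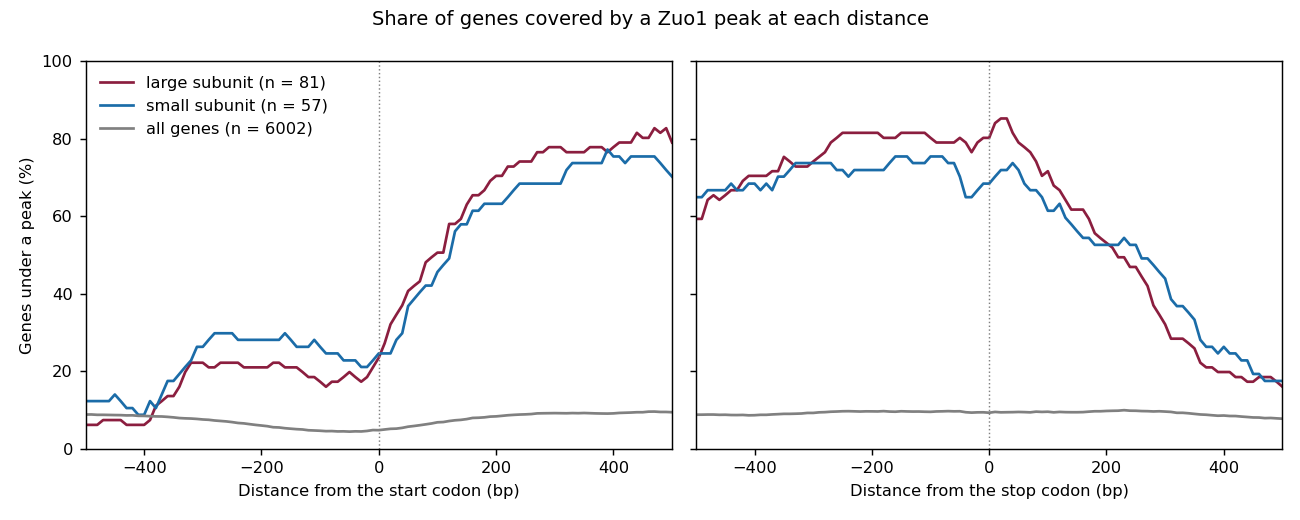
Share of genes (y axis, %) with a peak at each distance in bp from the start codon (left) and the stop codon (right), for large-subunit, small-subunit and all nuclear protein-coding genes. The large-subunit curve has a small rise near 300 bp before the start codon (22.2%), climbs from 23.5% at the start codon to 79.0% at 500 bp, and falls from 80.2% at the stop codon to 16.0% at 500 bp beyond it.

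Of the 76 strongest summits, 57 lay inside the body, 15 downstream of the stop codon and 4 upstream of the start codon. Inside the body, 12 were in the part nearest the start codon, 20 in the middle part and 25 in the part nearest the stop codon when each body was cut into 3 equal parts, with a median place at 59.9% of the gene. Over all genes with a body peak, 73.6% of the strongest summits were inside and the median place was 57.3%, close to the place in the members. The downstream summits were 10 to 493 bp beyond the stop codon (median 94.0 bp), 13 of 15 within 250 bp. They had a median fold of 2.73, against 2.34 for the 19 in introns, 2.30 for the 19 in later exons and 2.86 for the 19 in genes of a single exon. Among the downstream summits were those of RPL9B with 3.42 (2.89 to 4.03), RPL41A with 3.21 (2.67 to 3.82) and RPL8A with 3.19 (2.65 to 3.80).

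**Figure D4:**
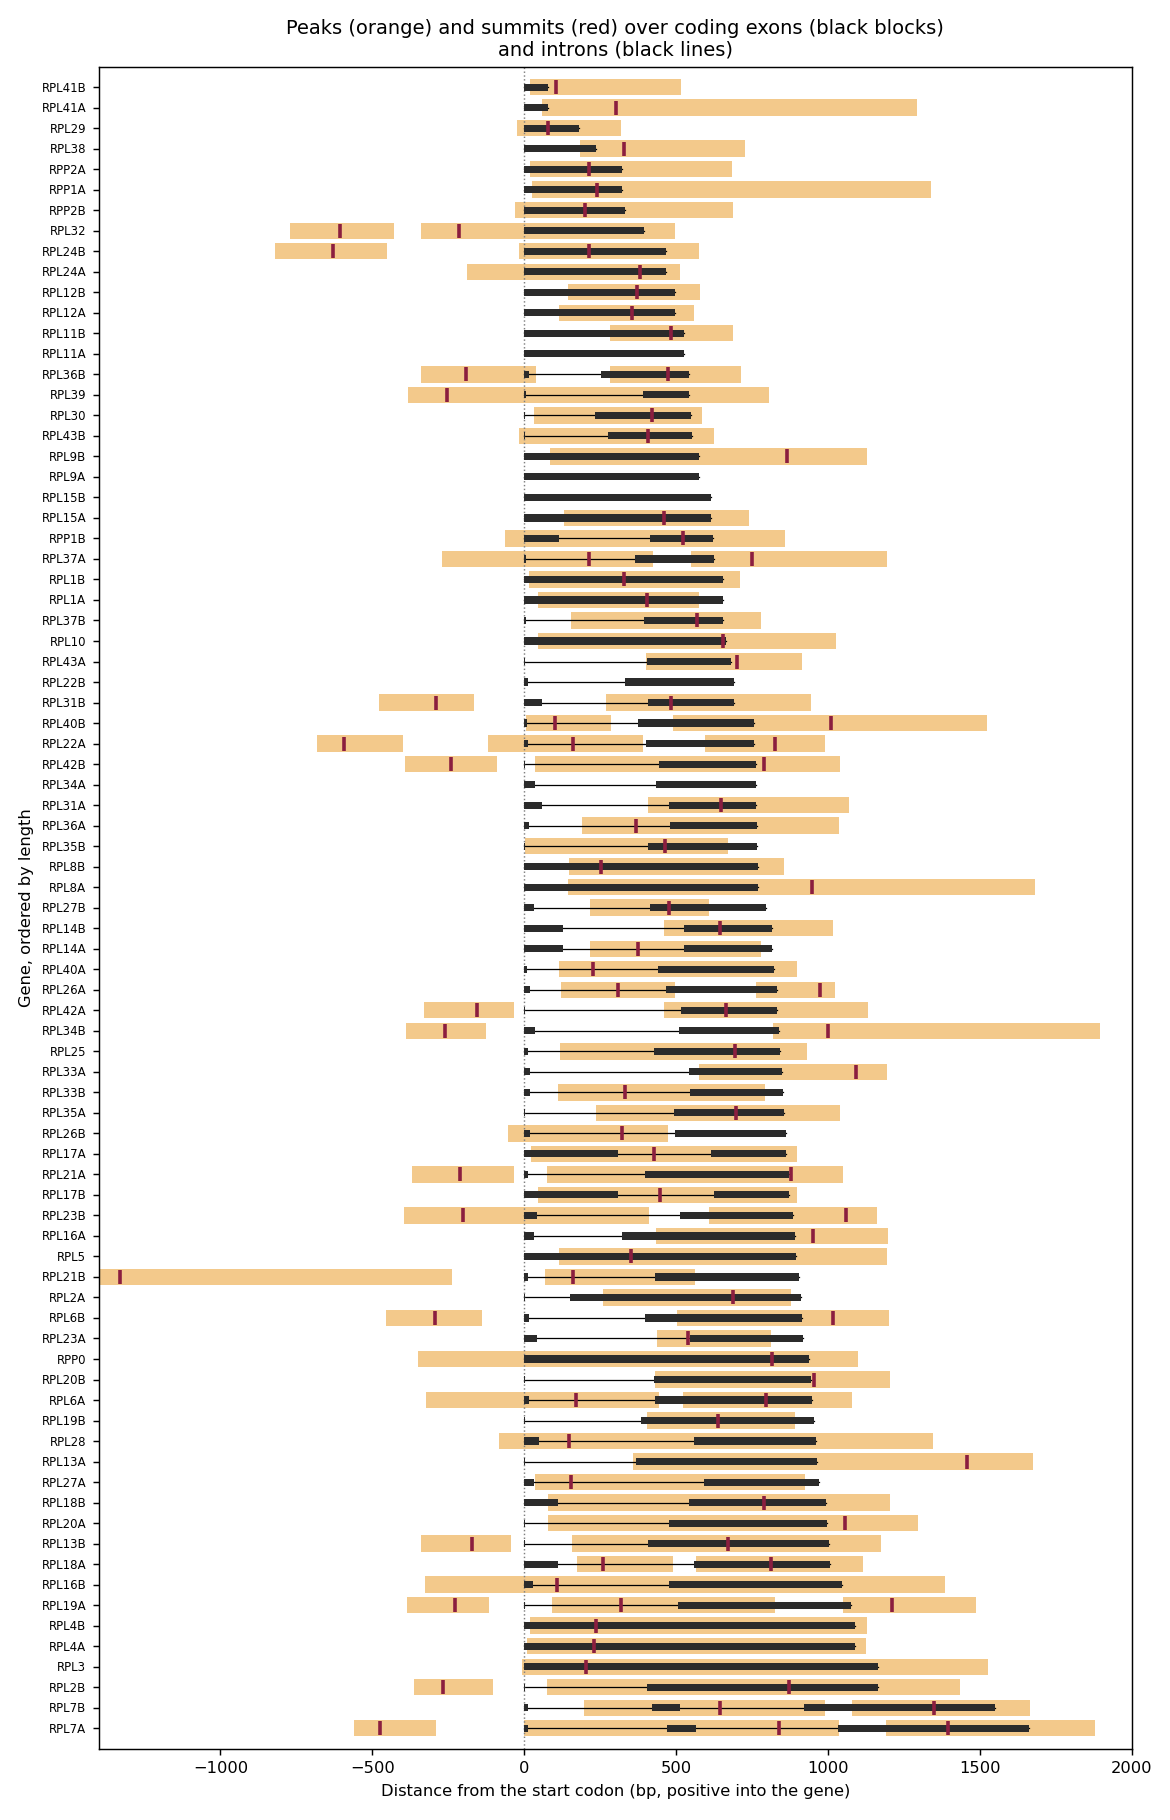
Map of each of the 81 genes, ordered by length, in bp from the start codon, with coding exons as black blocks, introns as lines, peaks over the body or the 500 bp upstream in orange and their summits in red. Peaks cover the body of most genes and run past the stop codon, RPL9A, RPL11A, RPL15B, RPL22B and RPL34A have no peak, and short separate peaks stand upstream of some genes.

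Some summits stood upstream. In 14 genes (17.3%) a summit lay within the 500 bp before the start codon, against 5.98% of all genes. The small-subunit genes were similar, with 11 of 57 (19.3%). In the 14 large-subunit genes the median distance was 234.5 bp, and in 10 of them the peak did not reach the gene body. These 10 peaks were short, 261 to 336 bp with a median of 296.5 bp. In 12 of the 14 genes a separate peak lay over the body, and in 8 of these 12 the upstream fold was the higher one. RPL21A had an upstream fold of 3.71 (3.16 to 4.34) and a body fold of 2.73 (2.24 to 3.29). In RPL6B these were 3.47 (2.92 to 4.09) and 2.42 (1.95 to 2.98), and in RPL31B 3.0 (2.49 to 3.57) and 1.92 (1.51 to 2.40). The intervals of RPL31B do not overlap and those of RPL21A and RPL6B do so by a small margin. In RPL23B, RPL36B, RPL39 and RPL32 the upstream summit belonged to a peak that reached into the gene. Of the 14 genes 13 have an intron, 8 are B copies and 4 are A copies. An upstream summit was thus present in 24.5% of the 53 members with an intron and in 3.57% of the 28 without. In the small subunit it was 21.6% of 37 genes with an intron and 15.0% of 20 without.

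Of these 14 summits, 12 lay in sequence with a GC content of at least 49%. Below are the 151 bp around the 3 upstream summits with the highest fold, and those around the summit of RPL32, which is one of the 2 exceptions, from chrXII:1028484-1028634 (+ strand), chrII:605983-606133 (+ strand), chrV:396493-396643 (+ strand) and chrII:45687-45837 (+ strand). They read towards the start codon, and runs of 4 or more G or C are in capitals.
RPL6B: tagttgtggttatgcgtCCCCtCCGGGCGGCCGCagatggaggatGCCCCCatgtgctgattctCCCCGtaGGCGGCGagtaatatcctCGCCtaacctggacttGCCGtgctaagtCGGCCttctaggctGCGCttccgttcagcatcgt
RPL21A: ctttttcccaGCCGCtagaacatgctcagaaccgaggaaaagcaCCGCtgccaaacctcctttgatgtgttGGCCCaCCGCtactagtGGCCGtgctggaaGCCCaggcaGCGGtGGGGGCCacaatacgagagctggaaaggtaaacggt
RPL23B: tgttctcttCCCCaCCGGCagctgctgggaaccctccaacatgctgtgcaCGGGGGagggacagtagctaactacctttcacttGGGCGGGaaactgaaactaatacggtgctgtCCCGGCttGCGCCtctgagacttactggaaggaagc
RPL32: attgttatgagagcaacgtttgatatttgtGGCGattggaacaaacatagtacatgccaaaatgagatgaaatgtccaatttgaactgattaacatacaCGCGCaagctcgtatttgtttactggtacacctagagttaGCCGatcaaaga
The GC content of these windows is 60.3% for RPL6B, 57.6% for RPL21A, 57.0% for RPL23B and 37.7% for RPL32, with 9, 8, 6 and 3 marked runs. The other exception was RPL7A with 35.1%, 475 bp before the start codon. The whole 500 bp upstream had a median GC content of 41.3% in these 14 genes, 36.8% in the other 67 members and 36.6% in all genes. The richest 151 bp window of the region had a median GC content of 57.6% in the 14 genes and 45.0% in the other 67, and 10 of the 14 summits lay within 50 bp of its centre. A GC-rich window was not always under a summit, since 24 of the 36 members with a richest window of at least 49% had no upstream summit. These windows were examined after the summits had been seen.

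Motifs of the factors that bind ribosomal protein promoters were searched in the 500 bp upstream on both strands. The core ACCCNNACA of the Rap1 site was present in 36 members (44.4%), against 5.48% of all genes, with 40 matches at a median of 312 bp before the start codon. Of these 40 matches, 5 lay under a peak. For scale, a peak covered the position 310 bp before the start codon in 22.2% of the 81 members. The share expected for the matches was not computed. A match was present in 8 of the 14 genes with an upstream summit, and 0 of the summits had a match within 75 bp. The median fold of the body peak was 2.37 in genes with the Rap1 core (33 of 36 with a body peak) and 2.63 in genes without it (43 of 45). An upstream peak was present in 12 of 36 and 17 of 45. The Abf1 consensus TCNNNNNNNACG was present upstream of 42.0% of the members and 46.1% of all genes. A match describes letters only and is not a bound site.

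The A and B copies were compared in 35 pairs, which leaves 11 members without a paralog. In 30 pairs both copies had a body peak, in 5 pairs one copy had it, and in 0 pairs neither. The A copy had the higher fold in 16 pairs and the B copy in 14, and the median fold was 2.40 for A and 2.41 for B copies. The absolute log2 ratio of A to B had a median of 0.25 and a maximum of 1.18. The coding sequences of the pairs are 69.2% to 99.4% identical (median 93.2%). In 3 pairs (RPL1, RPL4 and RPL11), over 50% of the 64-base stretches of a copy are repeated in the genome, so their reads are shared. The folds of the copies were weakly related across pairs. Pearson's r of the log2 folds over 30 pairs was 0.43 and Spearman's rho 0.04, and without RPL4, whose copies share reads, they were 0.18 and -0.06. The summits of a pair lay a median of 208.0 bp apart relative to the start codon, 6 pairs had them within 50 bp, and 15 pairs had them in the same kind of place.

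In 5 pairs the counting intervals of the copies did not overlap. RPL23B had 3.99 (3.40 to 4.65) and RPL23A 1.77 (1.37 to 2.24), a log2 ratio of A to B of -1.18. RPL36B had 3.28 (2.76 to 3.87) and RPL36A 2.11 (1.69 to 2.60), a log2 ratio of -0.64. In both pairs the summit of the B copy lay upstream, at -201 and -192 bp from the start codon, and that of the A copy in the intron, so the ratios set an upstream summit against one in the gene. Each of these B copies has a second body peak, with a fold of 2.01 (1.59 to 2.51) in RPL23B and of 2.94 (2.44 to 3.51) in RPL36B, and both intervals overlap those of the A copies. RPP2B and RPP2A, whose summits lay 14 bp apart, both in the hinge, differed by -0.90. RPL41A was higher than RPL41B by 0.75, with both summits downstream of the gene. RPL13A was higher than RPL13B, which had 2.24 (1.80 to 2.75), by 0.65, with the summit of the RPL13A peak in the neighbour RPP1A. In the other 25 pairs the intervals overlapped. RPP1 is the only pair in which one copy (RPP1B) has an intron and the other none, and its folds of 4.05 and 3.52 had overlapping intervals.

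**Figure D5:**
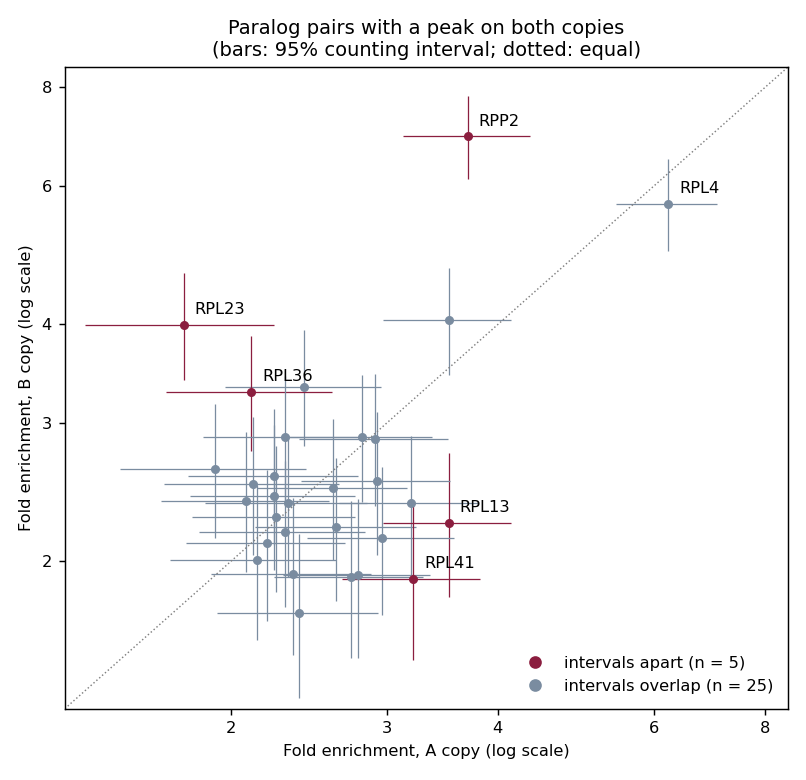
Fold enrichment of the B copy against the A copy for the 30 pairs with a peak on both, on log axes, with 95% counting intervals as bars and equality as a dotted line. RPL23, RPL36, RPP2, RPL13 and RPL41 (red) have intervals that do not overlap (for RPL23B and RPL36B the peak plotted has its summit upstream), RPL4 stands apart with both copies high, and the other pairs form a cloud with no clear slope.

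Upstream peaks were present for 15 B copies and 8 A copies of the 35 pairs. A body fold of at least 3 was reached by 8 B and 7 A copies, out of 33 and 32 with a body peak.

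The 5 genes without a peak in the body or upstream were RPL9A, RPL11A, RPL15B, RPL22B and RPL34A, each with a paralog that had one. The paralogs had folds of 3.42 (2.89 to 4.03) for RPL9B, 2.24 (1.80 to 2.76) for RPL11B, 3.12 (2.60 to 3.72) for RPL15A, 2.34 (1.90 to 2.86) for RPL22A and 3.30 (2.74 to 3.94) for RPL34B. A missing peak says only that the signal did not pass the threshold. The body of RPL34A lay 3 bp from a peak of 2.39-fold. The strongest peak of RPL34B in turn covered only 2.27% of its body, with the summit 162 bp beyond the stop codon. In RPL11A, 56.9% of the 64-base stretches are repeated in the genome, which is also where reads may be lost or shared with RPL11B, and how far this bears on its missing peak was not tested. RPL22A and RPL22B are 78.9% identical with no repeated stretch, and the nearest peak to RPL22B was 7331 bp away. The protein Rpl22 binds the intron of the RPL22B transcript and reduces its splicing.

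By position in the ribosome, a list of 14 genes was made of proteins around the exit of the tunnel, where Zuo1 works. It leaves out RPL4A and RPL4B, whose protein reaches into the tunnel from further inside and whose folds of 6.22 and 5.69 are given above. A body peak was present in 13 of the 14 genes, with a median fold of 2.35, below the 2.45 of all members, and 1 of them was above 3-fold. This was RPL39 with 3.43 (2.88 to 4.04), which codes for a small protein of the tunnel wall and had its summit 255 bp upstream. RPL31A and RPL31B, the genes of the protein nearest to Zuo1 on the ribosome, had 2.78 (2.29 to 3.35) and 1.92 (1.51 to 2.40). RPL25, the docking site of the signal recognition particle, had 2.21 (1.78 to 2.72), and RPL17A, whose protein lines the narrow part of the tunnel, 2.92 (2.40 to 3.53). The 7 genes of the stalk and its base all had a peak, with a median of 3.70, and 5 of the 7 were at 3-fold or above. Of the 5S particle, which brings the 5S rRNA into the subunit, RPL5 had 2.86 (2.37 to 3.44), RPL11B 2.24, and RPL11A had no peak. RPL40A and RPL40B, which encode fusions to ubiquitin, had 2.25 (1.81 to 2.76) and 2.28 (1.83 to 2.80).

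The genes that act on these proteins were taken from lists chosen with earlier results of these data known. Their shares are read against the 17.9% of all genes with a body peak and the 24.4% with a peak in body or upstream. Of 10 regulators of ribosomal protein genes, among them RAP1, FHL1, IFH1 and SFP1, 1 had a body peak, which is near the share of all genes. It was HMO1 with 2.00 (1.57 to 2.52), which encodes a chromatin protein of ribosomal protein promoters. Of 12 chaperones, importins and export factors of the large subunit, such as ACL4, RRB1, SQT1 and NMD3, 0 had a peak in the body or upstream. Of 7 genes of chaperones on the ribosome, 4 had a body peak (57.1%). These were SSB1 with 3.19 (2.66 to 3.80), its near-identical copy SSB2, with which reads may be shared, with 2.75 (2.26 to 3.33), EGD2, a subunit of the nascent polypeptide-associated complex, with 2.11 (1.67 to 2.62), and ZUO1 itself with 1.89 (1.47 to 2.40). SSZ1, EGD1 and BTT1 had none.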

How the data were processed

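Zuo1-Myc ChIP-seq was represented by 1 peak list made from 2 IP and 2 input libraries. Single-end reads of 64 bp had been mapped by the authors to sacCer3 (bowtie in the methods, Bowtie2 in the submitters' processing notes), and they called narrow peaks with MACS2 at a q-value of 0.05, all libraries in 1 run. The methods name 1 input among the treatment files and 1 IP among the controls. IP as treatment was assumed. The deposited columns, read by position since the header line belongs to another MACS table, hold the ratio of IP to local background (fold), the −log10 of a Poisson p-value and of its q-value from the authors' run, and a score of 10 times the −log10 q, not used here. The list has no value per replicate, and no library depth. Alignments were not used here.

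Gene bodies, introns and sequences were taken from R64. IP fragments were recovered from fold and p-value (pseudocount 1), and were whole within 0.001 of −log10 p in 100% of the 1584 peaks with a −log10 p under 300. The recovery and overlap scripts were tested on simulated data. Python 3.11.15, NumPy 2.4.6, SciPy 1.17.1, Biopython 1.88 and matplotlib 3.10.9 were used.

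The members and lists were chosen with earlier results of these data known. Genes named are all pairs with a peak on 1 copy only, the 10 highest and 5 lowest folds, the stalk genes, members without a peak, and members described by role. Genes named for the place of a summit, a difference between copies or an upstream summit were picked with their values in view. Alternatives were a fold of at least 3, a q of at most 0.001, the summit in place of 1 bp, 100 bp of overlap, other upstream lengths (250 and 1000 bp) and the removal of pairs at least 95% identical or of genes near small RNA genes. No test was made, since groups of genes are not replicates.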

Additional observations from a re-analysis of the deposited data

How the results depend on the processing

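Of 35 alternatives, 26 gave a count within 1.5 times the reported one. The 9 others came from a fold of at least 3 or from asking for the summit. At 3-fold, members with a body peak fell from 76 to 20, with an upstream peak from 29 to 13 and with either from 76 to 25. Intron genes with a body peak then numbered 8 in place of 51 and those without an intron 12 in place of 25, pairs with both copies 3 in place of 30, and strongest summits inside the body 12 in place of 57. With the summit required, members with an upstream peak numbered 14 and pairs with both copies 19. In all genes, the 3-fold limit lowered the share with a body peak from 17.9% to 7.31%.

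The peak list used here is limited by the pooling of both IP libraries, which leaves no spread between cultures, and by the depth at a summit (median 94.0 IP fragments), at which folds near 2 have intervals that overlap most others. No paired analysis was possible because the peak list, the one file used here, carries no replicate values.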
